A study of Mus musculus with 4 samples.

Results

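The genes described here are 8 genes of red blood cells: Hba-a1 and Hba-a2 for adult alpha globin, Hbb-bs and Hbb-bt for adult beta globin, Alas2, Slc4a1, Bpgm and Ahsp. They were chosen by name, with their measured levels in this comparison already known, so their differences between the groups are a description and carry no test. Of the 8 names, 7 matched a row among the 50593 genes of the table, and all 7 had, over both groups, a mean FPKM (fragments mapped per kilobase of transcript, scaled to the fragments mapped in the library) of at least 1. Ahsp, which encodes a chaperone of free alpha globin, is not analysed here.

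RNA of sciatic nerve was sequenced from mice of strain 129S1/SvImJ aged 6 months, and the labels give 2 animals labelled HSF V30M and 2 labelled HSF WT. Both groups are heterozygous for a deletion of heat shock factor 1 (Hsf-1). HSF V30M animals also carry a human transgene for transthyretin (TTR) with the V30M mutation and lack endogenous Ttr, and HSF WT animals carry no transgene. The promoter that drives the transgene is not given in the sources used here. The table holds 1 FPKM value per gene and group, so no spread between animals can be given for any value, and a group is called by its label throughout.

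Haemoglobin carries oxygen as a tetramer of alpha and beta globin chains, each holding a haem group. Red cell precursors make it in the marrow, with haem built in parallel from the reaction that Alas2 catalyses, and mouse reticulocytes and young red cells in the blood still hold globin RNA after the nucleus is lost. Slc4a1 encodes band 3, the anion exchanger of the red cell membrane, and Bpgm encodes the enzyme that makes bisphosphoglycerate, which lowers the affinity of haemoglobin for oxygen. Peripheral nerve is not a site of red cell production in the adult. In bulk tissue, fewer cells of a type and less RNA per cell cannot be told apart.

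As a check of the tissue, the myelin gene Mbp stood at 3854 FPKM in HSF V30M against 3441 in HSF WT. Hsf1 stood at 7.94 FPKM in HSF V30M and 14.95 in HSF WT, so its level differed although both groups are described as heterozygous for the Hsf-1 deletion. The reason for this difference was not tested. Endogenous Ttr, which HSF V30M animals should lack, was listed at 6.10 FPKM in HSF V30M. In HSF WT it was listed at 0, with 0.196 as the level of 3 fragments, so this gene goes against the labels. The table does not separate mouse Ttr from transgene reads, and its columns were assigned by the letters A and G that they share with the sample titles. Transgene reads and an exchange of the 2 columns, which would turn every direction given here, cannot be told apart from the table. From the steps between low values, the 2 libraries of HSF V30M differed 1.18-fold in depth and those of HSF WT 1.34-fold, and which library is which animal is not known. Ratios below are log2((HSF V30M + 1) / (HSF WT + 1)) of the FPKM values, and a gene was taken as past the fold when the ratio of FPKM + 1 was over 1.5 with a mean FPKM of at least 1. Folds are plain FPKM ratios, with a 95% interval that covers the counting of fragments only.

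Each globin pair consists of near-identical copies, which bears on how reads were divided between them. In the GENCODE release M21 transcripts of GRCm38, the coding sequences of Hba-a1 and Hba-a2 are 429 bases long and 99.8% identical. Their 1 difference is C381T, counted from the A of the start codon with the base of Hba-a1 first. It is shown as a capital in coding bases 349 to 408:
Hba-a1: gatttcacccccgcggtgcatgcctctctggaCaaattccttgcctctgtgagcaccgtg
Hba-a2: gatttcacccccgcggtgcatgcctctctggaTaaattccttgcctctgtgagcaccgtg

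The coding sequences of Hbb-bs and Hbb-bt are 444 bases long, also 99.8% identical, and differ by C417T with the base of Hbb-bs first. It is shown in the same way in coding bases 385 to 444, the last of the coding sequence:
Hbb-bs: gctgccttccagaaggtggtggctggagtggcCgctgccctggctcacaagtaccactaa
Hbb-bt: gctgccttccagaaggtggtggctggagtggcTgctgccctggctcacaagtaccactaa

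Reads can be told apart mainly by the ends of the transcripts. The longest run shared by whole transcripts is 415 bases for the alpha pair and 430 bases for the beta pair. Of all 100-base windows, 43.5% of those of Hba-a1 and 25.5% of those of Hba-a2 occur in that copy and not in the other. The shares are 37.4% for Hbb-bs and 45.2% for Hbb-bt. How the authors' counting split reads within a pair was not tested. Strain 129S1/SvImJ is of a family known to carry another beta globin haplotype than C57BL/6J, the strain of the reference genome, and what this does to the split between Hbb-bs and Hbb-bt was not tested.

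The sequence before the start sites is shown as a description of these genes. No relation between it and the differences between the groups was tested. The windows searched are the 250 bases before the RefSeq start (GRCm38.p6), and 6 of the 7 genes matched an entry, Slc4a1 being the one without. In each of them a GENCODE transcript starts before the RefSeq start, and the sequence is printed up to that transcript. This leaves 247, 82, 177 and 208 bases of Hba-a2, Hbb-bs, Hbb-bt and Alas2, printed along the strand of the gene. Capitals mark, on either strand, the letters AGATAA, also with T as the first letter, G as the last or both (the motif of GATA factors), CACCC (the motif of Klf1 and related factors) and TATAA (the TATA box).
Hba-a2, chr11:32296242-32296488, plus strand: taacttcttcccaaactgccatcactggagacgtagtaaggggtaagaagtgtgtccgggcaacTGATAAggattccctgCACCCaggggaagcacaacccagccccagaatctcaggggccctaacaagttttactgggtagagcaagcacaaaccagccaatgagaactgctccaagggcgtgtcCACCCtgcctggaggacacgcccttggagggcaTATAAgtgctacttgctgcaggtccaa
Hbb-bs, chr7:103828097-103828178, minus strand: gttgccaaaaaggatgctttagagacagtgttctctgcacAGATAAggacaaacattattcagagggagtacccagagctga
Hbb-bt, chr7:103813997-103814173, minus strand: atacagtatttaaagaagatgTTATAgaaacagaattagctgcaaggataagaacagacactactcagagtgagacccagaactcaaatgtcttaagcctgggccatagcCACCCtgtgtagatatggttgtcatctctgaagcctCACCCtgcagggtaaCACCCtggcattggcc
Alas2, chrX:150547167-150547374, plus strand: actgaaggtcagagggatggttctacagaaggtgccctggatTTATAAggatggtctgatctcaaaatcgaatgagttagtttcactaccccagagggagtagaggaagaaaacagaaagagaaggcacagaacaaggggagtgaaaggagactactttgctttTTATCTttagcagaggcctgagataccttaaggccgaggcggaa

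The whole windows of Hba-a1 and Hba-a2 share a run of 247 bases, while the longest run shared by the windows of Hbb-bs and Hbb-bt is 14 bases. Over the whole windows, the GATA letters matched once each in Hba-a1, Hba-a2, Hbb-bs and Alas2, with the first base 183, 186, 210 and 86 bases before the RefSeq start. CACCC matched 2 times each in Hba-a1 and Hba-a2, once in Hbb-bs and 3 times each in Hbb-bt and Alas2. A TATAA match lay 27, 30, 29 and 28 bases before the start of Hba-a1, Hba-a2, Hbb-bs and Hbb-bt. The window of Bpgm held none of these letters, but CCAAT, which capitals do not mark, matched 3 times in it. Over 32851 promoter entries of the same length, 26.5% held the GATA letters, 52% CACCC, 22.8% TATAA and 33.8% CCAAT. These matches describe letters and are not shown to be sites of binding.

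All 4 globin genes had their higher level in the animals labelled HSF V30M. Together they reached 282.6 FPKM in HSF V30M against 94.56 in HSF WT, a fold of 2.99. The alpha pair summed to 154.3 and 55.39 (2.79-fold) and the beta pair to 128.3 and 39.17 (3.28-fold). Moving reads from one copy of a pair to the other would change these sums only through the unequal transcript lengths. Whether reads that map to both copies were dropped or counted in part, or failed to align, was not tested. The 3 genes that are not globins summed to 21.45 and 16.74, a fold of 1.28.

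**Figure D1:**
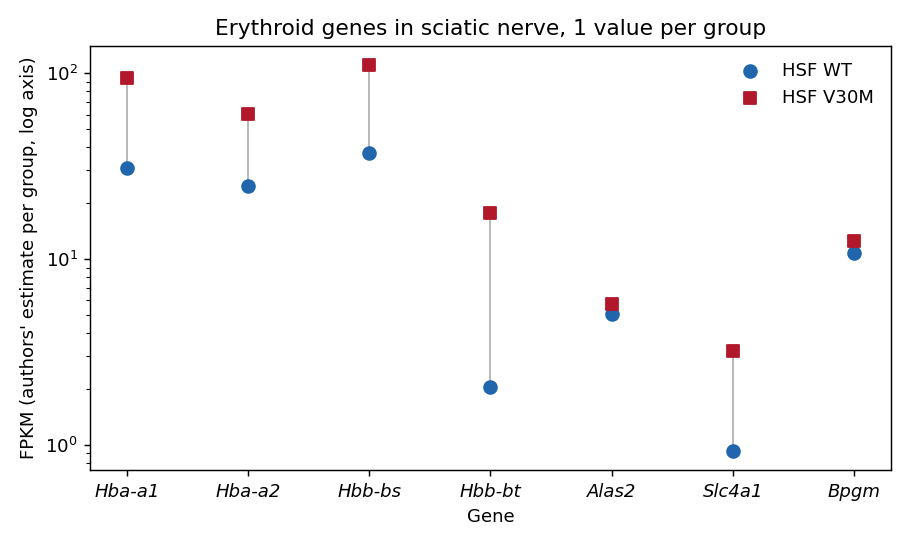
FPKM (log axis) of the 7 erythroid genes in HSF V30M and HSF WT, 1 value per gene and group as estimated by the authors over the libraries of the group, so no error bar can be drawn. HSF V30M lies above HSF WT for every gene, by the widest margin for Hbb-bt (17.61 against 2.042) and by narrow ones for Alas2 (5.71 against 5.081) and Bpgm (12.54 against 10.74).

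Hba-a1 (ENSMUSG00000069919, chr11:32283511-32284465, plus strand, 3 exons) is one of the adult alpha chain genes. Its level was 94.0 FPKM in HSF V30M, from 1017 to 1203 fragments, against 30.78 in HSF WT, from 238 to 318 fragments. The range of fragments reflects the unequal depth of the 2 libraries in each group. The fold was 3.05 (interval 2.65 to 3.53) and the log2 ratio 1.58, and 2.37% of the 15620 genes at a mean FPKM of 1 or more had a ratio at or above it.

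Hba-a2 (ENSMUSG00000069917, chr11:32296489-32297298, plus strand, 3 exons) is the other adult alpha chain gene and lies 12023 bases downstream. It stood at 60.27 and 24.61 FPKM, from 463 to 547 and from 135 to 181 fragments. The fold was 2.45 (interval 2.02 to 2.99), the log2 ratio 1.26. Hba-a2 gave 39.1% of the alpha FPKM in HSF V30M and 44.4% in HSF WT, so Hba-a1 was the more abundant copy in both groups.

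Hbb-bs (ENSMUSG00000052305, chr7:103826534-103828096, minus strand, 3 exons), an adult beta chain gene, had the highest level of all 7 genes in both groups. Its level was 110.7 FPKM in HSF V30M, from 1028 to 1215 fragments, against 37.13 in HSF WT, from 246 to 329 fragments. The fold was 2.98 (interval 2.59 to 3.44) and the log2 ratio 1.55, close to those of Hba-a1.

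Hbb-bt (ENSMUSG00000073940, chr7:103812524-103813996, minus strand, 3 exons), the other adult beta chain gene, lies 12537 bases from Hbb-bs. It stood at 17.61 and 2.042 FPKM, from 192 to 227 fragments in HSF V30M and only 16 to 21 in HSF WT. The fold was 8.62 (interval 5.18 to 15.4) and the log2 ratio 2.61, the highest of the 7. Its counting interval did not overlap those of the other 3 globin genes. These intervals cover neither the split of reads between Hbb-bs and Hbb-bt nor the spread between animals. No difference of Hbb-bt from the other globin genes is therefore read from them. Hbb-bt made up 13.7% of the beta FPKM in HSF V30M and 5.21% in HSF WT, and it moved from the sixth to the fourth place in the order of levels among the 7 genes. Alpha over beta FPKM was 1.20 in HSF V30M against 1.41 in HSF WT.

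Slc4a1 (ENSMUSG00000006574, chr11:102348824-102366203, minus strand, 20 exons), the band 3 gene, had the lowest level of the 7 in both groups. Its level was 3.20 FPKM in HSF V30M, from 302 to 357 fragments, against 0.9248 in HSF WT, from 62 to 83 fragments. The fold was 3.46 (interval 2.63 to 4.62) and the log2 ratio 1.13, a scale on which the added 1 weighs on low values. Without it the log2 ratio was 1.79. The mean FPKM of Slc4a1 reached 1 only through HSF V30M. The globin sum was 88.3 times the level of Slc4a1 in HSF V30M and 102 times in HSF WT.

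Alas2 (ENSMUSG00000025270, chrX:150547375-150570638, plus strand, 11 exons), the red cell form of the first enzyme of haem synthesis, lay within the fold. Its level was 5.71 FPKM in HSF V30M, from 228 to 269 fragments, against 5.081 in HSF WT, from 145 to 193 fragments. The fold was 1.12, with an interval of 0.909 to 1.39, and the log2 ratio 0.14, with 33.6% of genes at or above it. The globin sum was 49.5 times the level of Alas2 in HSF V30M and 18.6 times in HSF WT. In the table the locus of Alas2 is merged with others, from 150519518 to 150643878 on chromosome X, and is shared by 4 genes.

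Bpgm (ENSMUSG00000038871, chr6:34476207-34505613, plus strand, 3 exons), the bisphosphoglycerate enzyme, lay within the fold as well. Its level was 12.54 FPKM in HSF V30M, from 549 to 650 fragments, against 10.74 in HSF WT, from 336 to 449 fragments. The fold was 1.17 (interval 1.02 to 1.34) and the log2 ratio 0.21, with 27.5% of genes at or above it.

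**Figure D2:**
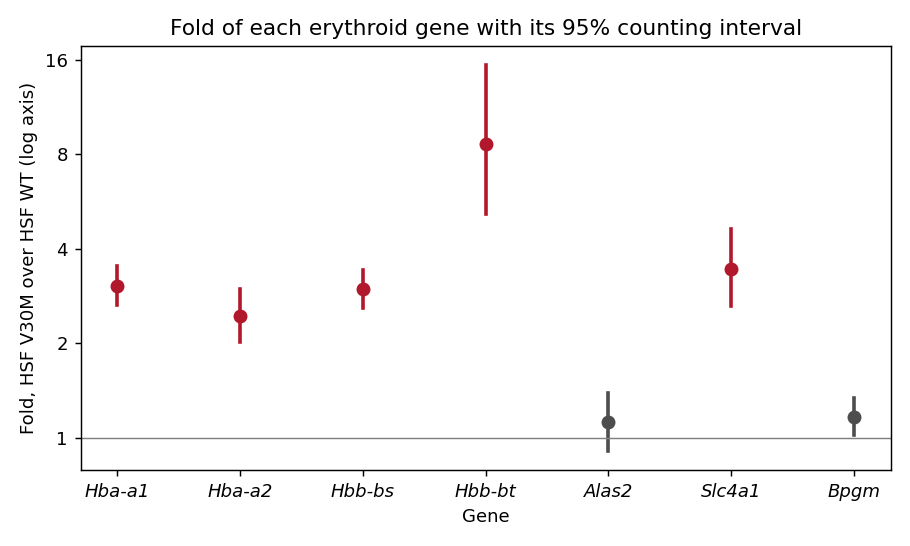
Fold of FPKM in HSF V30M over HSF WT (log axis) for the 7 erythroid genes, with 95% intervals that cover counting error only and not the spread between animals. The globin genes and Slc4a1 lie between 2.45 and 8.62, and Alas2 (1.12) and Bpgm (1.17) lie close to the line at 1.

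Of the 7 genes, 5 were past the fold as higher in HSF V30M, 0 as lower, and Alas2 and Bpgm were within it. Over all 15620 genes, 8.22% were past the fold as higher and 8.44% as lower. As the genes were selected on these values, nothing is read from the difference between these shares. The median log2 ratio of the 7 genes was 1.26 and that of all genes 0.00. All 7 differences had the same direction. Among genes whose mean FPKM was 10 or more, the 5 closest to this median in log2 ratio were Aldh3b1 (20.89 and 8.189 FPKM, ratio 1.25), Sema3g (54.31 and 22.65, ratio 1.23), Rpl26 (285.8 and 122.7, ratio 1.21), Slc7a5 (37.21 and 14.47, ratio 1.30) and Per1 (34.53 and 13.27, ratio 1.32). With 2 group values this likeness is in a single ratio.

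**Figure D3:**
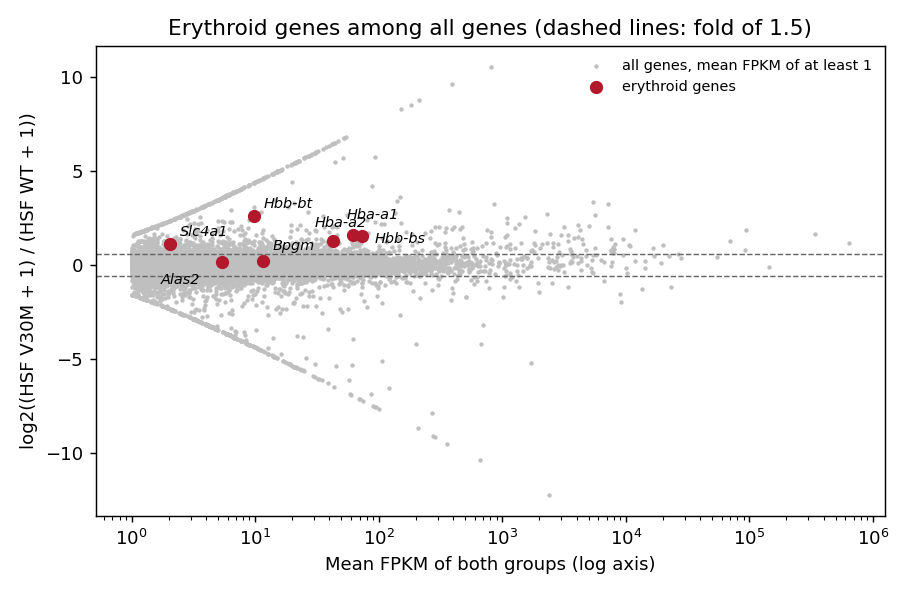
log2((HSF V30M + 1) / (HSF WT + 1)) against the mean FPKM of both groups (log axis) for the 15620 genes at a mean of 1 or more (grey) and the 7 erythroid genes (red), with dashed lines at a fold of 1.5. Alas2 and Bpgm lie between the lines and the other 5 above them, and the grey points along the slanted edges are genes at or near 0 in 1 group.

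Other genes of the red cell were read from 8 lists, with 93 of the 97 listed genes in the table. Of the 63 that reached a mean FPKM of 1, 3 (4.76%) were past the fold as higher in HSF V30M and 6 (9.52%) as lower, beside 8.22% and 8.44% of all genes. The difference seen in the globins and Slc4a1 was not seen in most of these genes, many of which are also used by other cells of the nerve.

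Of 9 other haemoglobin genes in the table, 0 reached a mean of 1. The embryonic genes Hba-x, Hbb-y, Hbb-bh1 and Hbb-bh2 were among 7 listed at 0 in both groups. For Hba-x, 3 fragments would give 0.365 FPKM in HSF V30M and 0.511 in HSF WT. The pseudogene Hba-ps4 was listed at 0.85 and 0, with 0.784 as the level of 3 fragments in HSF WT. Hbq1b was listed at 0.19 and 0, both under the levels of 3 fragments (0.382 and 0.535). Among globins of other tissues, Cygb, which encodes cytoglobin, stood at 37.41 and 41.43 FPKM (log2 ratio -0.14), and the other two were low: Mb (myoglobin) stood at 0.61 and 0.2511 and Ngb (neuroglobin) at 0.46 and 0.3648.

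In haem synthesis and transport, all 12 genes reached a mean of 1, 0 were past the fold as higher and 1 as lower, and the median log2 ratio was -0.02. The highest ratios were those of Fech, which inserts iron into the ring (17.21 and 14.52 FPKM, 0.23), and Alad, the second enzyme of the pathway (63.53 and 54.35, 0.22). Ppox, the enzyme before Fech, was among the lowest (16.86 and 22.46, -0.39). Alas1, the form of the first enzyme that most tissues use, stood at 49.45 and 58.88 FPKM, far above Alas2 in both groups. With Alas2 the pathway thus held no gene past the fold as higher.

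In the red cell membrane and skeleton list, 11 of 21 genes reached a mean of 1, of which 0 were past the fold as higher and 1 as lower, with a median of 0.13. Dmtn, which bundles actin in the membrane skeleton (7.82 and 5.48, 0.44), and the water channel Aqp1 (54.31 and 40.72, 0.41) had the highest ratios. Ank1, the ankyrin that ties band 3 to the membrane skeleton (1.48 and 2.899, -0.65), and Cd44 (11.45 and 16.78, -0.51) had the lowest. Of the 10 genes under a mean of 1, 7 were higher in HSF V30M and 3 lower. The 3 lower were Tspo2 (0.02 and 0.4454), Add2 (0.33 and 0.5232) and Icam4 (0.2 and 0.3443). Both values of Tspo2 lay under its levels of 3 fragments (0.507 and 0.709). Rhag and Kel, among the 7 higher, are named here after their values were seen. Rhag stood at 0.32 and Kel at 0.36 in HSF V30M, and both were at 0 in HSF WT, with 0.139 and 0.294 as the levels of 3 fragments there. These levels rest on few fragments and no fold is given.

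Of erythroid transcription factors and signalling genes, 7 of 12 reached a mean of 1, of which 2 were past the fold as higher and 0 as lower, with a median of 0.13. The 2 were Nfe2, a subunit of a factor that binds globin control regions (1.86 and 0.4872 FPKM, 0.94), and Zfpm1, the partner of GATA factors known as FOG1 (8.39 and 4.366, 0.81). Nfe2 reached a mean of 1 only through HSF V30M, so its count as higher depends in part on the minimum. The lowest ratios were those of Lmo2 (29.37 and 33.66, -0.19) and Epor, the erythropoietin receptor (1.18 and 1.067, 0.08). Gata1 (0.29 and 0.2357) and Klf1 (0.23 and 0.04867), the factors that drive red cell genes, were under a mean of 1 in both groups, and both are named after their values were seen. Both values of Gata1 lay under its levels of 3 fragments (0.626 and 0.876), as did Klf1 in HSF WT (0.146). The HSF WT value of Nfe2 lay just above its level on the same basis (0.476). How many fragments lie behind these values on longer transcripts was not computed.

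Among red cell enzymes and reticulocyte genes, 16 of 19 reached a mean of 1, of which 1 was past the fold as higher and 2 as lower, with a median of 0.10. Prdx2, a peroxidase of red cells and other tissues, was among the highest (64.56 and 51.01, 0.33) and lay within the fold. Blvrb, a biliverdin reductase (38.51 and 61.15, -0.65), and Isg20 (3.73 and 6.24, -0.61) were the 2 past it as lower.

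For the glycolytic genes around Bpgm, all 6 reached a mean of 1, 0 were past the fold as higher and 1 as lower, with a median of 0.03. Gapdh (367.4 and 295.5, 0.31) and Minpp1 (7.68 and 6.471, 0.22) had the highest ratios, and Pgam2, a muscle mutase (1.64 and 3.047, -0.62), and Tpi1 (154.2 and 189.6, -0.30) the lowest. In the clearance of haem and haemoglobin, 10 of 11 genes reached a mean of 1, 0 were past the fold as higher and 1 as lower, with a median of -0.05. Slc48a1, a haem transporter (67.99 and 57.57, 0.24), and Cd163, the macrophage receptor for haemoglobin bound to haptoglobin (14.39 and 13.03, 0.13), had the highest ratios. Hp, which encodes haptoglobin (54.03 and 96.47, -0.82), and Blvra, the other biliverdin reductase (7.01 and 10.96, -0.58), had the lowest.

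**Figure D4:**
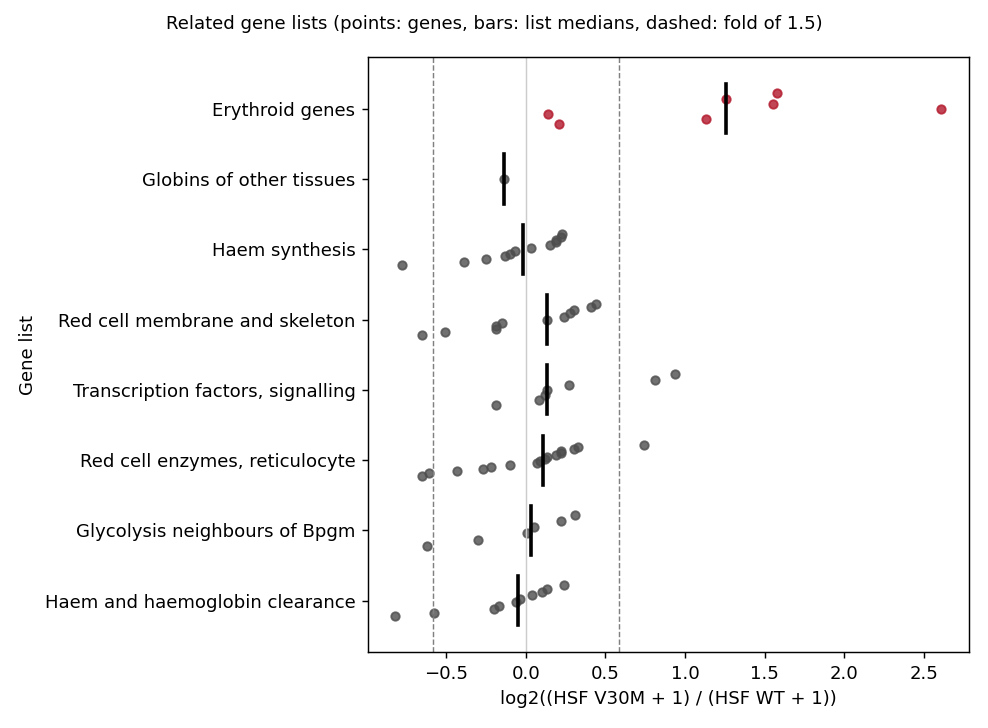
log2((HSF V30M + 1) / (HSF WT + 1)) of each gene at a mean FPKM of 1 or more (points) in the lists of related genes, with the median of each list as a bar and dashed lines at a fold of 1.5. The list medians lie between -0.14 and 0.13, and the median of the 7 erythroid genes lies at 1.26.

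Markers of other cells were read beside these values, since blood, marrow and lymphoid cells can come with a dissected nerve. Neutrophil genes moved with the globins: 9 of the 11 genes reached a mean of 1, of which 7 were past the fold as higher in HSF V30M and 2 as lower, and the list summed to 121.3 FPKM in HSF V30M against 44.52 in HSF WT (2.72-fold). S100a9, a calcium-binding protein of neutrophil granulocytes, stood at 58.99 and 13.81 FPKM (log2 ratio 2.02) and the granule gene Ngp at 14.39 and 2.964 (1.96), while Csf3r, the receptor for granulocyte colony-stimulating factor, stood at 2.63 and 6.046 (-0.96). Without S100a9, the most abundant gene of the list, the sums were 62.27 and 30.7 FPKM (2.03-fold). None of the neutrophil genes was at 0 in either group. Their part in the globin difference was not tested.

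Platelet genes, of cells that share the blood with red cells, were mostly low. Of the 11 genes, 10 were higher in HSF V30M at any size and 2 reached a mean of 1, of which Itga2b was past the fold as higher (10.9 and 6.309 FPKM, 0.70) and Pf4, also known from macrophages, was not (42.13 and 49.88, -0.24). The list summed to 58.89 FPKM in HSF V30M against 57.9 in HSF WT. Pf4 made up most of both sums, and without it, a choice made after seeing the data, they were 16.76 and 8.013 (2.09-fold). Ppbp (1.82 FPKM in HSF V30M) and Gp6 (0.07) were at 0 in HSF WT, with 0.219 and 0.253 as the levels of 3 fragments there. Of the marrow progenitor genes, 5 of 10 reached a mean of 1, 0 were past the fold as higher and 1 as lower, while 7 of 10 were higher in HSF V30M at any size. The sums were 70.8 and 72.46, and 17.9 and 18.46 without Cd34, the most abundant gene. Cd34, also an endothelial gene, stood at 52.9 and 53.99 FPKM, Spi1 at 6.28 and 10.44 (-0.65) and Prtn3 at 1.92 and 1.276 (0.36). The granule genes of myeloid precursors Mpo (1.85 and 0.1404) and Elane (0.78 and 0.08259) and the factor Gfi1 (0.88 and 0.2044), named after their values were seen, were just or well under a mean of 1 and higher in HSF V30M. Their HSF WT values lay under the levels of 3 fragments there (0.44, 0.247 and 0.396), so no fold is given. Proliferation genes summed to 6.72 and 6.792, with 4 of 6 at a mean of 1 or more and 0 past the fold, from Top2a (1.25 and 1.998, -0.41) to Ccna2 (1.16 and 0.8894, 0.19), and Rrm2 stood at 1.70 and 1.539. The part of these cells was not tested.

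Most lymphocyte genes lay the other way. All 5 B cell genes that reached a mean of 1, of 7, were past the fold as lower in HSF V30M, and the sums were 3.49 and 30.04 FPKM. Cd22 stood at 1.26 and 8.494 (-2.07), Cd79a at 0.65 and 7.095 (-2.29), Cd79b at 0.53 and 7.161 (-2.42) and Pax5 at 0.44 and 2.852 (-1.42), and Vpreb3 was listed at 0 in HSF V30M. The 4 T cell genes that reached a mean of 1, of 7, were past the fold as lower too, with sums of 3.60 and 14.71, Trac at 1.20 and 3.432 (-1.01) and Cd4 at 0.52 and 3.877 (-1.68). None of the T cell genes was at 0. Trac apart, the T cell genes counted reached a mean of 1 only through HSF WT. The same holds for the B cell genes counted apart from Cd22, so these calls as lower depend in part on the minimum. At any size, 7 of 7 B cell genes and 6 of 7 T cell genes were lower in HSF V30M. The T cell gene that was higher was Cd3d (0.51 and 0.486).

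Monocyte genes summed to 24.35 and 25.85 FPKM. Of the 5 of 6 with a mean of at least 1, 1 was past the fold as higher, Chil3 (2.45 and 0.6118, 1.10), and 0 as lower, with Ly6c2 at 2.25 and 3.047 (-0.32), F13a1 at 12.45 and 15.41 and Plac8 at 3.30 and 4.033. Chil3 reached that mean only through HSF V30M. Resident macrophage genes, whose cells take up old red cells in other organs, summed to 144.6 and 198.6. Of these 6, 1 was past the fold as lower, Cd68 (15.49 and 30.88, -0.95), with Adgre1 highest (7.98 and 7.698, 0.05), C1qa at 70.57 and 96.54 and Csf1r at 31.18 and 35.99.

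Endothelial genes, which line the vessels that hold the blood, did not move with the globins. All 7 lay within the fold, between -0.33 for Pecam1 (44.91 and 56.54 FPKM) and 0.28 for Egfl7 (95.53 and 78.55), and their sums were 235.5 and 224.4. Of the 8 Schwann cell genes, 1 was past the fold as higher, S100b (328.4 FPKM in HSF V30M, 1.63-fold, 0.71), and 0 as lower, with Mag lowest (85.68 and 96.76, -0.17), and the sums were 12465 and 10845.

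**Figure D5:**
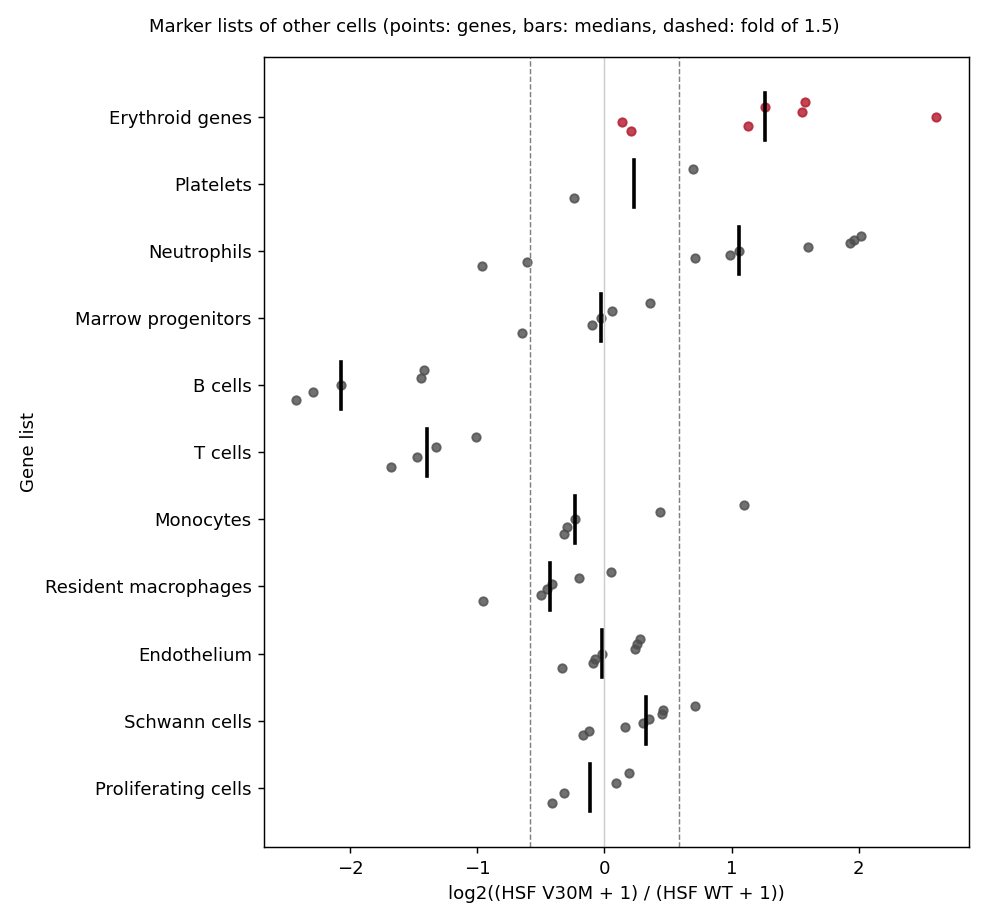
log2((HSF V30M + 1) / (HSF WT + 1)) of marker genes of 10 other cell classes at a mean FPKM of 1 or more (points) below the 7 erythroid genes, with list medians as bars and dashed lines at a fold of 1.5. The medians of the erythroid genes (1.26) and the neutrophil genes (1.06) lie above the fold, those of the B cell (-2.07) and T cell (-1.39) genes below it, and endothelial genes centre on -0.02.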

How the data were processed

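RNA of sciatic nerve was sequenced in 2 HSF V30M and 2 HSF WT mice per the labels, while the methods give n = 4 without saying whether this is per group. Ion Torrent libraries were aligned by the authors to GRCm38. The submitters' processing notes name STAR, Cufflinks and Cuffdiff, with versions not given in the sources used here. The methods name no perfusion of the animals. The deposited table holds 1 FPKM per gene and group, estimated by the authors with Cuffdiff over the libraries of the group, with decimal commas. Its columns of the authors' own comparison (fold change, test statistic, p and q) were not used. With 1 value per group there is no test, SD or p-value.

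Here, 23 genes without an estimate were dropped, and log2((HSF V30M + 1) / (HSF WT + 1)) was computed. The worth of 1 fragment was read from low values of single-transcript genes alone in their locus, 400 to 1000 bases long, with 200 bases taken off the length. It was 0.0390 and 0.0461 FPKM per effective kilobase in HSF V30M (97.3% of 473 values whole within a rounding of 0.005) and 0.0482 and 0.0645 in HSF WT (97.9% of 476 within 1%). Fold intervals are exact binomial intervals of the split of fragments. Intervals and levels of 3 fragments cover counting error only, the latter on the shortest coding transcript over 400 bases where there is one. Where a gene has longer transcripts, its level of 3 fragments is thus an upper one, and a value under it can rest on more fragments.

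The genes, lists and tests were chosen with earlier results of these data known. Named are all 8 genes, the 2 highest and 2 lowest ratios of each related list, the 2 most abundant, lowest and highest genes of each marker list, and the 5 genes nearest the median ratio with a mean FPKM of at least 10, except some genes that are not reported here. Positions and transcripts are from GENCODE M21, promoters from RefSeq. The ratio and fragment steps were tested on simulated data. Alternatives were a pseudocount of 0.1, 2 scalings, minimum means of 5 or none, a fold over 2, summed copies, the genes other than globins, and whole transcript lengths. Scripts ran on Python 3.11.15 with pandas 2.3.3, numpy 2.4.6 and scipy 1.17.1, and plots were drawn by matplotlib 3.10.9.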

Additional observations from a re-analysis of the deposited data

How the results depend on the processing

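Of 41 alternatives for single erythroid genes, 39 moved little, 2 moved (Slc4a1, from 1.13 to 1.69 with a pseudocount of 0.1 and to 1.79 without one, the latter chosen after seeing the data), and 0 lay below 0. The number past the fold stayed at 5, except for 4 with a minimum mean of 5, where Slc4a1 is not counted. The median log2 ratio of 1.26 became 1.57 with a pseudocount of 0.1, 1.58 without one, 1.40 with a minimum mean of 5, 1.13 with the copies of each globin pair summed and 0.21 for the genes other than globins. Over all genes, 1284 higher and 1319 lower became 732 and 646 with a minimum mean of 5 and 621 and 616 with a fold over 2. In the related lists, 3 higher became 5 with no minimum and 0 with a fold over 2, and 6 lower became 3 with a minimum mean of 5 and 0 with a fold over 2. Whole transcript lengths gave 1.04 to 1.56 times as many fragments. No paired analysis was possible because each group has a single value, and leaving out a sample was not run for the same reason. The value of Hbb-bt in HSF WT rests on 16 to 21 fragments.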
